A study of Mus musculus with 32 samples.

Results

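Gene expression was followed for 39 genes of glycolysis, lactate transport and the response to low oxygen in cultured cells of mouse brain tumours. The members were taken by name and not by their values, and 37 of the 39 could be read because they had a probe set that the array's annotation lists for that gene alone, out of 19938 genes with such a probe set. Eno1 (an enolase) and Gpi1 (glucose-6-phosphate isomerase) had none and were not analysed here. The measured members were 13 glycolytic enzymes, 4 transporters of glucose or lactate, 3 regulators of glycolytic flux, 2 alpha subunits of the hypoxia-inducible factor (HIF) and 15 other HIF targets, meaning genes known from other work to be induced through HIF.

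The study compared brain tumours that different added oncogenes produce from postnatal neural stem and progenitor cells. All 8 groups started from p53-deficient neurosphere cells (strain B6;129-Trp53tm1Brd) of the wall of the postnatal lateral ventricle that were transplanted into the brain, and cells expressing the transgenes were sorted from each tumour and grown as neurospheres. A secondary tumour arose after HRAS was added to sphere cells of a PNET in 2 arrays (MYC then HRAS), and after MYC was added to sphere cells of a glioma in 2 arrays (HRAS then MYC). HRAS with MYC gave tumours called AT/RT-like (7 arrays), HRAS with Bmi1 gave glioma (2 arrays) and HRAS alone gave glioma (5 arrays). MYC with Ezh2 (5 arrays), MYC with Bmi1 (3 arrays) and MYC alone (6 arrays) gave PNET. PNET stands for primitive neuroectodermal tumour and AT/RT for atypical teratoid/rhabdoid tumour. Since all groups lack p53, no array shows these genes in p53-intact cells, and the neurospheres were measured in culture, away from the oxygen supply of the tumour. The labels do not say whether the arrays of a group come from separate tumours, so the p-values measure the spread between arrays, which may be partly technical.

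Glycolysis splits glucose to pyruvate. Hexokinase, phosphofructokinase and pyruvate kinase catalyse its irreversible steps, and lactate dehydrogenase and the monocarboxylate transporters turn pyruvate to lactate and carry it across the membrane. HIF is a pair of an oxygen-labile alpha subunit and a stable partner. The prolyl hydroxylases of the Egln family mark the alpha subunit for destruction when oxygen is present, and without that mark HIF binds DNA at a short core and raises glycolytic genes together with genes of vessel growth, pH control, collagen maturation and mitochondrial turnover. MYC is also known to drive glycolytic genes, and RAS signalling to raise glucose uptake, so both oncogenes bear on the same pathway.

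The promoter windows of 6 members are shown because these genes carry the main contrasts below. Slc2a1, Car9, Ero1a and Egln3 were higher in HRAS, HRAS+MYC and MYC then HRAS cells than in MYC cells, Adm separated glioma cells from HRAS+MYC cells, and Car12 was lower in HRAS cells than in MYC or HRAS+MYC cells. Sequences are from RefSeq on GRCm38.p6 and run 5′ to 3′ on the gene's strand, from 250 bases before to 50 after the start. Capitals mark the letters ACGTG or GCGTG, searched on both strands, so that CACGT and CACGC are the same letters read from the other strand.
Slc2a1, chr4:119108495-119108794, plus strand: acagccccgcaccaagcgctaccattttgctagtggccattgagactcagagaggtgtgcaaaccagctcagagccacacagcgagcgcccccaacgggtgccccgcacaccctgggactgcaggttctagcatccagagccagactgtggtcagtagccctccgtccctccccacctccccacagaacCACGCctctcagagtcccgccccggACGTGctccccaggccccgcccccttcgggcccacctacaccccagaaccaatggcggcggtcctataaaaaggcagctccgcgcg
Car9, chr4:43506776-43507075, plus strand: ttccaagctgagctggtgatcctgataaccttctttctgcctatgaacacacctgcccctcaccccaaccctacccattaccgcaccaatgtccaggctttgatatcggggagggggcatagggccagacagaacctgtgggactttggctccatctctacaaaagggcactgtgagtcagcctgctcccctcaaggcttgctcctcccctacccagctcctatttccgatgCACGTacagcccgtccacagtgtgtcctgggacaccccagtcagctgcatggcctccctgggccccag
Ero1a, chr14:45318523-45318822, minus strand: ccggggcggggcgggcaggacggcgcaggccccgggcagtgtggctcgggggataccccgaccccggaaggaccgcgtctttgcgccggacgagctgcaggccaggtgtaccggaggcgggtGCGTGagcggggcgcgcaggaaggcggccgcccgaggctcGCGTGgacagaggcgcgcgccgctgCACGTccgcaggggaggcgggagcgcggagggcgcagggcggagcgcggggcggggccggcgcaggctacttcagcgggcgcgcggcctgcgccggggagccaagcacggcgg
Egln3, chr12:54203825-54204124, minus strand: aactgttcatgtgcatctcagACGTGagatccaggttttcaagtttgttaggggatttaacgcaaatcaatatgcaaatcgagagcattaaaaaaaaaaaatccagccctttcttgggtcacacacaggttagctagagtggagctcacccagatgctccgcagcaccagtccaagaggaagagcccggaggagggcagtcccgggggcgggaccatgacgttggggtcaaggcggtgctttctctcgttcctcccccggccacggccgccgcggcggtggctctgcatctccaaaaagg
Adm, chr7:110627407-110627706, plus strand: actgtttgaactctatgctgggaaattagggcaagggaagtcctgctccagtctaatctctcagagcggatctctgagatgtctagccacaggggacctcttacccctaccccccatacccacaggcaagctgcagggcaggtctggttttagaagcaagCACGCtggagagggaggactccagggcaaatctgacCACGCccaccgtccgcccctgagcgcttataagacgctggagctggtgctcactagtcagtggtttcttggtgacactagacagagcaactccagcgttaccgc
Car12, chr9:66713436-66713735, plus strand: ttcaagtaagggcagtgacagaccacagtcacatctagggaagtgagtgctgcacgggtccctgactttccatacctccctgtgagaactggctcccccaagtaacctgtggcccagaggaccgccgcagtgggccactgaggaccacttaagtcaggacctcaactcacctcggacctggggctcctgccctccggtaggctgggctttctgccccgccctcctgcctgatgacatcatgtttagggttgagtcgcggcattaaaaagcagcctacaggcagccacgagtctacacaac
Of the 39 genes, 35 had at least 1 window in the table, 48 windows in all. ACGTG or GCGTG was present in 38 of the 48 (79.2%), against 43.8% of all 32851 windows. The shares were 18 of 25 windows (72.0%) for the glycolytic enzymes and 12 of 14 (85.7%) for the other HIF targets. CACGTG, the E-box that MYC is known to bind and that contains ACGTG, was present in 6 of the members' windows (12.5%), against 7.15% of all windows. Such a match describes letters in the window and is not evidence of a bound site.

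Array medians lay between 5.59 and 5.79 on the log2 scale, and the correlation between arrays of a group was between 0.940 and 0.994. The lowest lay within the MYC group, where replicates 4 and 5 are left out together in an alternative fit below. Of 9 neural stem cell markers, Vim was the brightest in every group, and the mean of the list per array ran from 7.10 to 9.96. Group means of Vim were 13.17 to 13.66 with HRAS and 11.44 to 11.64 without it. In HRAS, HRAS+MYC, HRAS then MYC and MYC then HRAS cells, 3 of the 9 had group means under 6. The count was 1 in MYC+Ezh2 cells and 0 in MYC, MYC+Bmi1 and HRAS+Bmi1 cells. Endothelial markers (8) had group means under 6 in all groups. Of 9 microglia and macrophage markers, between 7 and 9 had means under 6 in each group. Cd68, a macrophage marker, was the brightest of them in every group with HRAS and averaged 9.65 in MYC then HRAS, 6.40 in HRAS then MYC, 9.58 in HRAS+MYC, 6.82 in HRAS+Bmi1, 9.11 in HRAS and 5.98 in MYC cells. Cd68 was therefore high where many members below were high, other than in HRAS+Bmi1 and HRAS then MYC cells. Erythroid markers (2) had group means of at most 6.95. The part of any admixed cells in these results was not tested. In such bulk samples fewer cells that express a gene and less RNA per cell cannot be told apart.

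For 7 of the 8 members with several probe sets, the brightest set, which was the one used, has neighbours in the order of probe-set numbers that lie on another chromosome than the gene. These are Hk1, Pgk1, Pgam1, Pkm, Bnip3, Bnip3l and Higd1a. The brightest Hk1 set correlated at 0.83 over the 32 arrays with the mean of 16 sets listed for both Rpl17 and Hk1, and at −0.11 with the Hk1 set among chromosome 10 neighbours. Where Hk1 or Higd1a is named below, values from both sets are therefore given, a choice made after the data were seen. The other 5 genes gave the same calls from both sets in the comparisons of HRAS, HRAS+MYC and MYC cells, where 33.4%, 34.2% and 24.6% of all genes passed with such sets (HRAS against MYC, HRAS+MYC against MYC and HRAS+MYC against HRAS).

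Glioma cells with HRAS had more transcript of glucose uptake, lactate export and most HIF targets than PNET cells with MYC. Of the 37 members, 24 were higher and 3 lower in HRAS cells at an adjusted p under 0.05 by limma, where 33.4% of all genes passed (15.4% higher and 18.0% lower). The other HIF targets had larger differences than the enzymes, with a median log2 difference of 1.72 over 15 genes and 0.55 over 13 genes, beside −0.03 over all genes. Among the other HIF targets 12 rose and 1 fell, and 11 differed by more than 1 in the direction of HRAS, while 7 enzymes rose, 1 fell and 4 exceeded 1. For 19 of the 37 members the arrays of the groups did not overlap. The share of all genes without overlap, or with a difference above 1, was not counted, so these counts have no background to be read against.

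Slc2a1, the glucose transporter GLUT1, measured 11.91, 12.09, 11.87, 11.83 and 12.04 in HRAS cells, against a lowest of 7.60, a median of 8.45 and a highest of 9.33 in MYC cells. All HRAS arrays lay above all MYC arrays, by a mean of 3.46 ± 0.27 on the log2 scale (SE of the fit), (adjusted p = 7.28e-11). Slc16a3, the lactate exporter MCT4, measured 9.89, 10.64, 11.19, 10.78 and 10.62 in HRAS cells, against 6.96 at the lowest, 7.18 at the median and 10.55 at the highest in MYC cells. Only MYC replicate 5 reached the HRAS range. The difference was 2.92 ± 0.58 (adjusted p = 0.000218), and 3.49 without that array. Slc2a3, the high-affinity glucose transporter GLUT3, measured 11.29, 11.68, 11.20, 10.67 and 11.68 in HRAS cells, against 8.80, 9.61 and 10.69 (lowest, median and highest) in MYC cells. It rose by 1.68 ± 0.31 (adjusted p = 9.43e-05), with 1 MYC array just above the lowest HRAS array. Slc16a1, the lactate transporter MCT1, differed by 0.11 ± 0.20 and did not pass (adjusted p = 0.762).

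Within the enzymes, the liver-type phosphofructokinase Pfkl rose most, while its isozymes did not follow. Pfkl measured 10.27, 10.54, 10.70, 10.52 and 10.84 in HRAS cells, against 8.60, 9.17 and 9.47 (lowest, median and highest) in MYC cells, a separation of 1.45 ± 0.23 (adjusted p = 1.55e-05). The muscle-type Pfkm was lower by 0.56 on the log2 scale (−0.56 ± 0.19, adjusted p = 0.0241), with overlapping arrays, and it missed the threshold in the fits without replicate 1 or 4 of HRAS and without replicate 2 or 4 of MYC (−0.53, −0.50, −0.49 and −0.39). The platelet-type Pfkp differed by 0.10 ± 0.28 (adjusted p = 0.848). Aldolase Aldoa (1.02), triosephosphate isomerase Tpi1 (1.06), phosphoglycerate mutase Pgam1 (0.86), phosphoglycerate kinase Pgk1 (0.59) and pyruvate kinase Pkm (0.55) rose with no overlap of arrays. The neuronal enolase Eno2 rose by 1.43 ± 0.37 (adjusted p = 0.00338) with overlapping arrays, HRAS replicate 5 being at 9.12 and the other HRAS arrays between 6.89 and 7.46.

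Hexokinase and lactate dehydrogenase showed no change that passed in this contrast from the probe sets used. Hk2, the inducible hexokinase, differed by −0.04 ± 0.21 (adjusted p = 0.929), and Ldha, the form that favours lactate, by 0.15 ± 0.12 (adjusted p = 0.397). Ldhb, the form that favours pyruvate, measured 8.0, 7.14, 7.53, 7.16 and 7.38 in HRAS cells, against 6.94, 8.86 and 9.02 (lowest, median and highest) in MYC cells. MYC replicates 4 and 5 held the low Ldhb values of 7.18 and 6.94 and the other MYC arrays lay between 8.72 and 9.02, so that the difference of −0.87 ± 0.38 (adjusted p = 0.0801) became −1.50 (adjusted p = 0.000670) without these 2 arrays. Hk1, the constitutive hexokinase, differed by −0.07 ± 0.10 from the brightest set. From the set among chromosome 10 neighbours it measured 9.28, 9.71, 9.56, 9.40 and 9.63 in HRAS cells, against 7.78, 8.42 and 8.98 (lowest, median and highest) in MYC cells, and was higher by 1.12 ± 0.15 (adjusted p = 1.66e-06).

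Wide differences among the HIF targets concerned carbonic anhydrases, a peptide hormone and collagen hydroxylation. Car9, a carbonic anhydrase at the cell surface that is a standard marker of hypoxia, measured 8.05, 10.33, 6.43, 10.77 and 5.80 in HRAS cells, against 4.27, 4.38 and 4.49 (lowest, median and highest) in MYC cells. The HRAS arrays spread from 5.80 to 10.77, yet all lay above the narrow MYC range, with a difference of 3.90 ± 0.74 (adjusted p = 0.000123). Every Car9 value in MYC cells lay below the medians of all arrays, a range where RMA compresses differences, so no fold is given and the log2 differences of Car9 against MYC cells here and below may understate the change. Its relative Car12 went the other way, with 6.81, 8.03, 6.48, 5.50 and 5.19 in HRAS cells, against 9.28, 9.62 and 10.12 in MYC cells. No array overlapped, and Car12 fell by 3.27 on the log2 scale (SE 0.49, adjusted p = 6.44e-06). Adm, which encodes the vasodilator peptide adrenomedullin, measured 9.86, 10.40, 10.28, 9.69 and 10.21 in HRAS cells, against 5.27, 6.30 and 7.87 in MYC cells. The groups lay apart by 3.59 ± 0.44 (adjusted p = 2.30e-07).

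P4ha2, a catalytic subunit of collagen prolyl 4-hydroxylase, measured 9.43, 10.24, 9.43, 9.30 and 9.25 in HRAS cells, against 4.79, 5.65 and 7.79 (lowest, median and highest) in MYC cells. It rose by 3.55 ± 0.38 (adjusted p = 2.76e-08), and its paralogue P4ha1 rose by 1.72 ± 0.21, both with no overlap. The P4ha2 median in MYC cells lay near the array medians of 5.59 to 5.79. Differences of P4ha2 against MYC cells may therefore be understated too. Egln3, an oxygen-sensing prolyl hydroxylase that HIF itself induces, rose by 3.13 ± 0.32 without overlap, whereas its relative Egln1 differed by 0.33 and did not pass (adjusted p = 0.0776). The mitophagy receptors Bnip3 (2.84) and Bnip3l (1.11), the stress-response gene Ndrg1 (2.90), the disulfide oxidase Ero1a (2.63) and the vessel growth factor Vegfa (1.55) all passed with no overlap. Ankrd37 rose by 1.32 ± 0.44 (adjusted p = 0.0190) and missed the threshold without HRAS replicate 5 (1.09). Higd1a, a mitochondrial protein, rose by 0.83 ± 0.24 from the brightest set but differed by −0.02 ± 0.15 from the set among neighbours on its own chromosome. That set was dim, with means of 5.68 in HRAS and 5.69 in MYC cells, so it may understate a difference. Ddit4, an inhibitor of mTORC1, differed by −0.80 and did not pass (adjusted p = 0.0705).

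Both HIF alpha subunits were higher in HRAS cells. Hif1a rose by 1.04 ± 0.17 (adjusted p = 2.10e-05 by limma) with no overlap. Epas1, which encodes HIF-2 alpha, rose by 0.80 ± 0.22 (adjusted p = 0.00595 by limma) with overlapping arrays. Epas1 was dim in MYC cells, at 5.18 to 5.71, near or below the array medians of 5.59 to 5.79. The caution given for Car9 therefore holds for its differences against MYC cells too. Hif1a lay far higher, at 9.56 to 10.84 in MYC cells. Among the flux regulators, Pfkfb3, which makes the activator of phosphofructokinase, was lower (−0.89 ± 0.31, adjusted p = 0.0276), and it missed the threshold without HRAS replicate 4, MYC replicate 4 or MYC replicate 5 (−0.51, −0.84 and −0.78). Pfkfb4 and Pdk1, a kinase that inhibits pyruvate dehydrogenase, differed by 0.33 and 0.32 and did not pass.

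**Figure D1:**
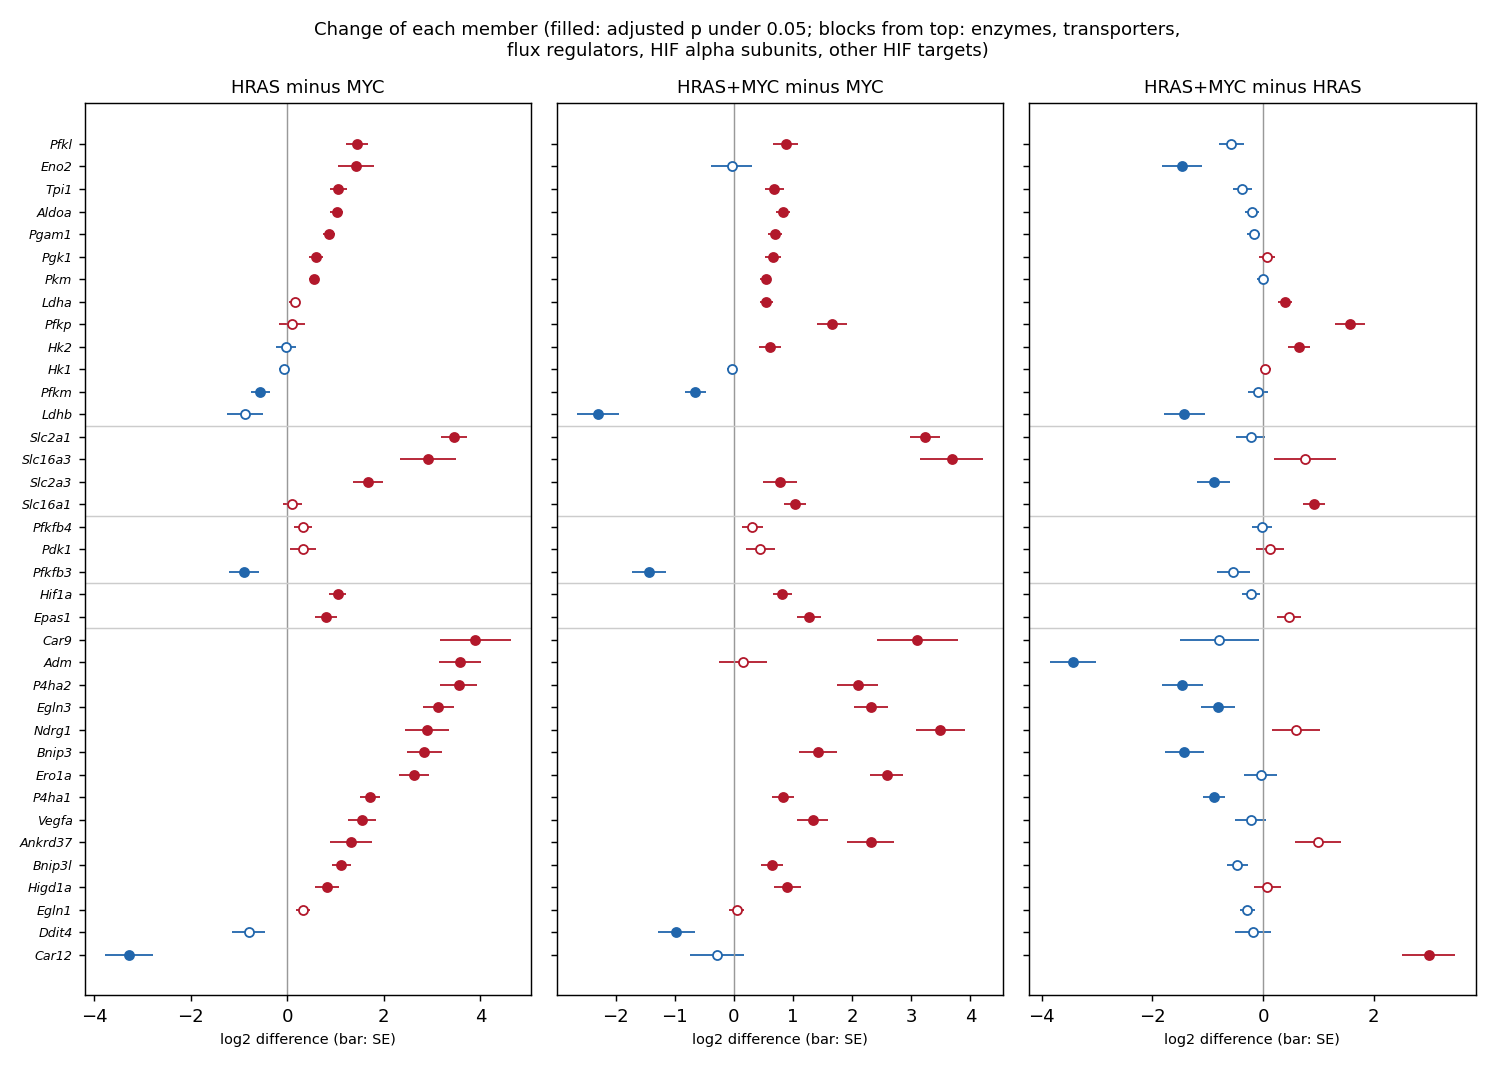
Log2 difference of each of the 37 members (points) with its standard error (bars) in HRAS minus MYC, HRAS+MYC minus MYC and HRAS+MYC minus HRAS, each panel with its own scale; filled points passed at adjusted p under 0.05, and lines divide the 5 classes. Most HIF targets lie right of 0 against MYC, Car12 lies at −3.27 for HRAS and −0.28 for HRAS+MYC, and Adm lies at 3.59 for HRAS and 0.15 for HRAS+MYC.

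Cells with both HRAS and MYC had more transcript of all 4 transporters, most enzymes and most HIF targets than MYC cells. Of the 37 members, 26 were higher and 4 lower in HRAS+MYC cells than in MYC cells, where 34.2% of all genes passed (15.8% higher and 18.4% lower). Among the enzymes 9 rose and 2 fell, with a median of 0.61, and among the other HIF targets 11 rose and 1 fell, with a median of 1.33; the median over all genes was 0.03. The gap between these medians was 0.72, and 0.42 with the probe sets on the genes' own chromosomes. Because both contrasts use the same MYC arrays, their values are given side by side and no likeness between them is drawn.

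Slc16a3 measured 11.04 at the lowest, 11.42 at the median and 11.63 at the highest in HRAS+MYC cells, against 6.96, 7.18 and 10.55 in MYC cells. The arrays did not overlap and the difference was 3.68 ± 0.53 (12.8-fold, adjusted p = 3.09e-06). Slc2a1 measured 11.29, 11.69 and 12.05 (lowest, median and highest) in HRAS+MYC cells, against 7.60, 8.45 and 9.33 in MYC cells, a separation of 3.23 ± 0.25 (adjusted p = 4.40e-11). Slc16a1 also rose here, by 1.03 ± 0.19 (adjusted p = 7.01e-05), with all HRAS+MYC arrays above all MYC arrays. Slc2a3 rose by 0.79 ± 0.29 (adjusted p = 0.0332), a call that ended in 7 of the fits that left out 1 array, with differences between 0.62 and 0.78 there.

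The dehydrogenases of lactate moved in opposite directions. Ldhb measured 5.84, 6.02 and 6.17 (lowest, median and highest) in HRAS+MYC cells, against 6.94, 8.86 and 9.02 in MYC cells. The narrow HRAS+MYC range lay below every MYC array, and Ldhb fell by 2.30 on the log2 scale (SE 0.35, adjusted p = 6.28e-06), or by 2.92 without MYC replicates 4 and 5. That range is dim, near the array medians of 5.59 to 5.79. The caution given for Car9 therefore holds for the falls of Ldhb in HRAS+MYC cells, here and against HRAS cells below. Ldha rose by 0.55 ± 0.11 (adjusted p = 0.000321), with ranges of 13.08 to 13.35 in HRAS+MYC cells and 12.22 to 13.11 in MYC cells that touched. Pfkp measured 10.79, 11.13 and 11.45 in HRAS+MYC cells, against 8.73, 9.35 and 10.70 in MYC cells. All HRAS+MYC arrays were above, by 1.66 ± 0.25 (3.17-fold, adjusted p = 7.05e-06). Pfkl rose by 0.87 ± 0.21, Pfkm fell by 0.65 on the log2 scale and Hk2 rose by 0.61 ± 0.19 (adjusted p = 0.0126), while Eno2 differed by −0.04. Aldoa (0.83), Pgam1 (0.69), Tpi1 (0.69), Pgk1 (0.67) and Pkm (0.54) rose. Hk1 from the set among chromosome 10 neighbours was higher by 0.99 ± 0.14 (adjusted p = 2.55e-06), whereas its brightest set differed by −0.03 ± 0.09 and did not pass.

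Ndrg1 measured 10.23, 11.14 and 11.73 (lowest, median and highest) in HRAS+MYC cells, against 6.44, 6.75 and 9.74 in MYC cells. MYC replicates 4 and 5 were high at 9.74 and 9.24 but still below every HRAS+MYC array, and the rise was 3.49 ± 0.42 (adjusted p = 1.57e-07). Car9 measured 5.20, 8.13 and 8.96 in HRAS+MYC cells, against 4.27, 4.38 and 4.49 in MYC cells, and rose by 3.10 ± 0.68 (adjusted p = 0.000615). HRAS+MYC replicates 1 and 2 held the low values of 5.26 and 5.20 and the other 5 arrays lay between 7.62 and 8.96. Ankrd37 split in the same way, with 6.81 and 6.72 in those arrays and 8.61 to 9.33 in the rest, and rose by 2.31 ± 0.40. Ero1a measured 11.07, 12.29 and 12.61 in HRAS+MYC cells, against 8.57, 9.70 and 10.30 in MYC cells, and Egln3 measured 7.97, 8.69 and 9.80, against 5.99, 6.41 and 6.92. Neither overlapped, with differences of 2.58 ± 0.28 for Ero1a (adjusted p = 3.32e-08) and 2.31 ± 0.29 for Egln3 (adjusted p = 3.10e-07). Adm (0.15 ± 0.40), Car12 (−0.28 ± 0.45) and Egln1 (0.04) did not pass. Ddit4 fell by 0.98 on the log2 scale (SE 0.31, adjusted p = 0.0151).

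P4ha2 (2.09), Bnip3 (1.42), Vegfa (1.33), P4ha1 (0.83) and Bnip3l (0.65) rose with overlapping arrays, and Bnip3l missed the threshold without MYC replicates 4 and 5 (0.34). Higd1a rose by 0.91 ± 0.22 from the brightest set and differed by −0.01 ± 0.14 from the other, which is dim. Both HIF alpha subunits rose, Epas1 by 1.27 ± 0.21 without overlap and Hif1a by 0.82 ± 0.16. Epas1 remained the dimmer, with means of 6.67 in HRAS+MYC and 5.40 in MYC cells, beside 11.06 and 10.24 for Hif1a. Pfkfb3 fell by 1.43 on the log2 scale (SE 0.29, adjusted p = 0.000253), with 6.33 to 7.81 in HRAS+MYC cells and 8.31 to 9.26 in MYC cells.

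**Figure D2:**
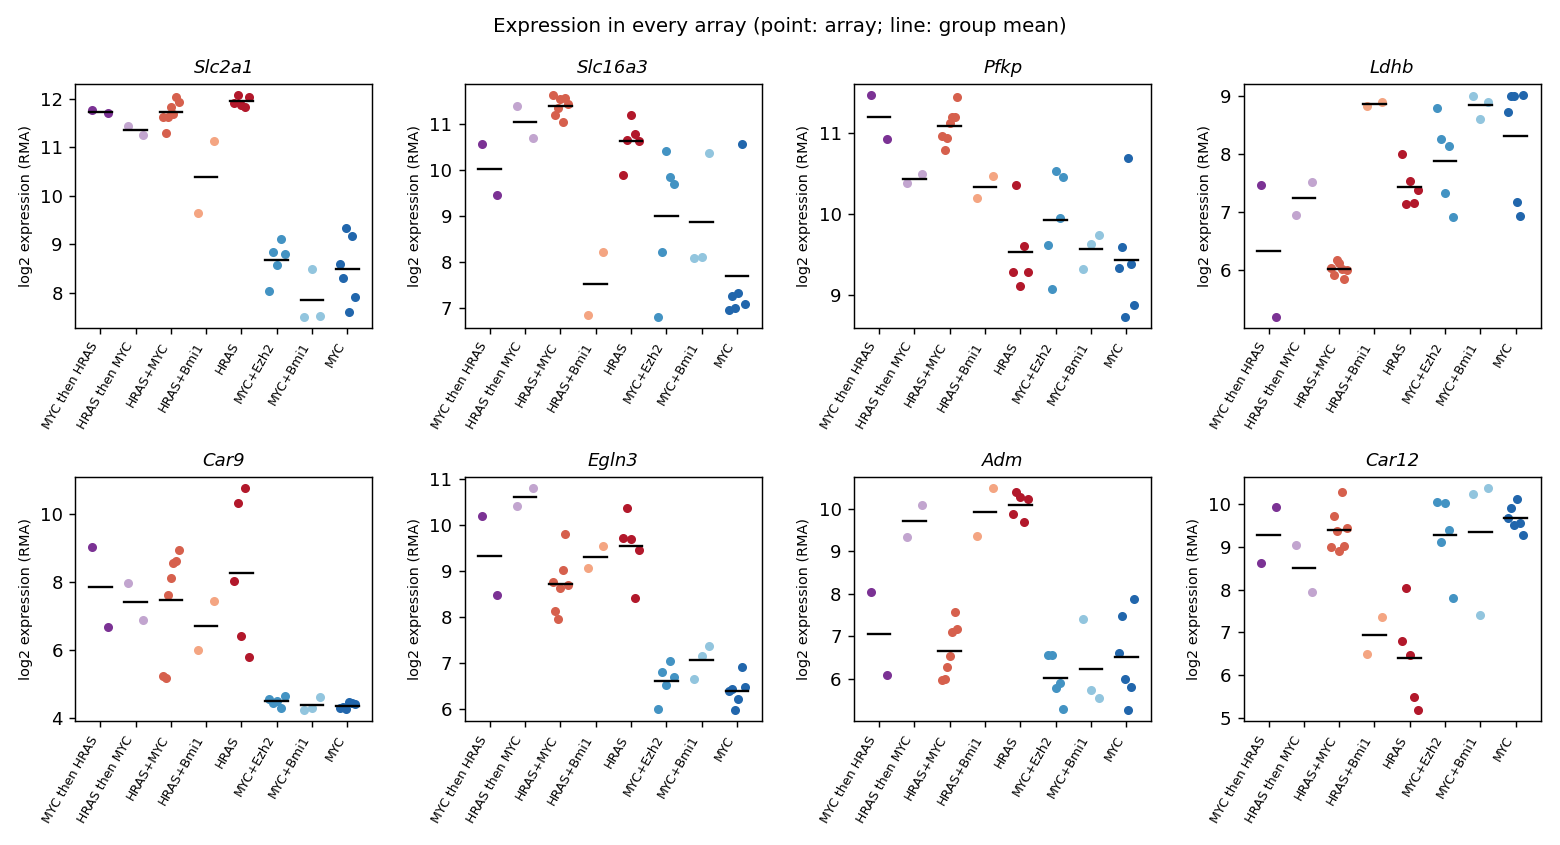
Log2 expression of 8 members in every array (points) with the group mean (line), for all 8 groups, each panel with its own scale. Slc2a1 lies above 11 in the MYC then HRAS, HRAS then MYC, HRAS+MYC and HRAS arrays, Pfkp lies at 10.79 or more in HRAS+MYC cells, and Adm separates HRAS (9.69 to 10.40) from HRAS+MYC (5.96 to 7.56).

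Set against glioma cells with HRAS alone, HRAS+MYC cells had more transcript of some enzymes and less of others. They had more of 1 lactate transporter and less of several HIF targets. Of the 37 members 5 were higher and 8 lower, where 24.7% of all genes passed (11.7% higher and 13.0% lower). The count of higher members was near that share of all genes. Pfkp, Hk2, Ldha and Slc16a1 rose, and Eno2, Ldhb and Slc2a3 fell. Of the 15 other HIF targets 5 fell, namely Adm, P4ha2, Bnip3, P4ha1 and Egln3, and Car12 rose. The class medians were −0.28 for the other HIF targets and −0.09 for the enzymes, beside 0.05 over all genes.

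Pfkp measured 10.79, 11.13 and 11.45 (lowest, median and highest) in HRAS+MYC cells, against 9.29, 10.36, 9.11, 9.61 and 9.28 in HRAS cells. No array overlapped and the rise was 1.57 ± 0.27 (2.96-fold, adjusted p = 7.36e-05). Slc16a1 measured 11.51, 11.92 and 12.23 in HRAS+MYC cells, against 11.07, 11.32, 10.75, 10.17 and 11.39 in HRAS cells, and rose by 0.92 ± 0.20 without overlap (adjusted p = 0.000834). Hk2 rose by 0.65 ± 0.20 (adjusted p = 0.0174), with all HRAS+MYC arrays at 9.92 or more and all HRAS arrays at 9.65 or less. Ldha rose by 0.40 ± 0.12 (adjusted p = 0.0144), with HRAS replicate 2 inside the HRAS+MYC range.

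Eno2 measured 5.28, 6.09 and 6.84 (lowest, median and highest) in HRAS+MYC cells, against 7.02, 7.21, 6.89, 7.46 and 9.12 in HRAS cells. It fell by 1.47 on the log2 scale without overlap (SE 0.36, adjusted p = 0.00320). Ldhb measured 5.84, 6.02 and 6.17 in HRAS+MYC cells, against 8.0, 7.14, 7.53, 7.16 and 7.38 in HRAS cells, again without overlap, and fell by 1.43 (SE 0.37, adjusted p = 0.00473). Slc2a3 was lower by −0.89 ± 0.30 (adjusted p = 0.0292), a call that ended without HRAS+MYC replicate 1 or 2 or HRAS replicate 2 or 5 (−0.72, −0.77, −0.80 and −0.80). Slc2a1 (−0.23), Slc16a3 (0.76) and Pfkl (−0.57) did not pass.

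Adm measured 5.96, 6.53 and 7.56 (lowest, median and highest) in HRAS+MYC cells, against 9.86, 10.40, 10.28, 9.69 and 10.21 in HRAS cells. All HRAS+MYC arrays lay below, and Adm fell by 3.44 on the log2 scale (10.8-fold, SE 0.42, adjusted p = 8.21e-07). Car12 measured 8.90, 9.38 and 10.29 in HRAS+MYC cells, against 6.81, 8.03, 6.48, 5.50 and 5.19 in HRAS cells, a rise of 2.99 ± 0.48 without overlap (adjusted p = 3.15e-05). P4ha2 measured 7.37, 8.06 and 8.48 in HRAS+MYC cells, against 9.43, 10.24, 9.43, 9.30 and 9.25 in HRAS cells. It fell by 1.46 without overlap (SE 0.37, adjusted p = 0.00397), and P4ha1 was lower by −0.89 ± 0.20. Bnip3 measured 7.82, 9.64 and 10.15 in HRAS+MYC cells, against 10.03, 11.08, 10.64, 11.12 and 10.88 in HRAS cells, and fell by 1.42 (SE 0.35, adjusted p = 0.00295). Its lowest values again came from HRAS+MYC replicates 1 and 2, and 1 HRAS+MYC array lay above the lowest HRAS array. Egln3 passed narrowly (−0.82 ± 0.30, adjusted p = 0.0494) and missed the threshold in 9 of the fits that left out 1 array, with differences between −0.84 and −0.61 there.

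The class levels per array summarise these shifts. For each array the median of the gene-centred values of a class was taken, where 0 is the mean over all 32 arrays of each gene. The enzymes lay between 0.02 and 0.39 in HRAS+MYC cells, between 0.08 and 0.31 in HRAS cells and between −0.79 and −0.15 in MYC cells. The other HIF targets lay between −0.20 and 0.90 in HRAS+MYC cells, between 0.75 and 1.21 in HRAS cells and between −1.09 and −0.67 in MYC cells. HRAS+MYC arrays overlapped HRAS arrays in both classes and MYC arrays in neither. HRAS+MYC replicates 1 and 2 had the lowest target levels of their group, at −0.20 and 0.01.

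**Figure D3:**
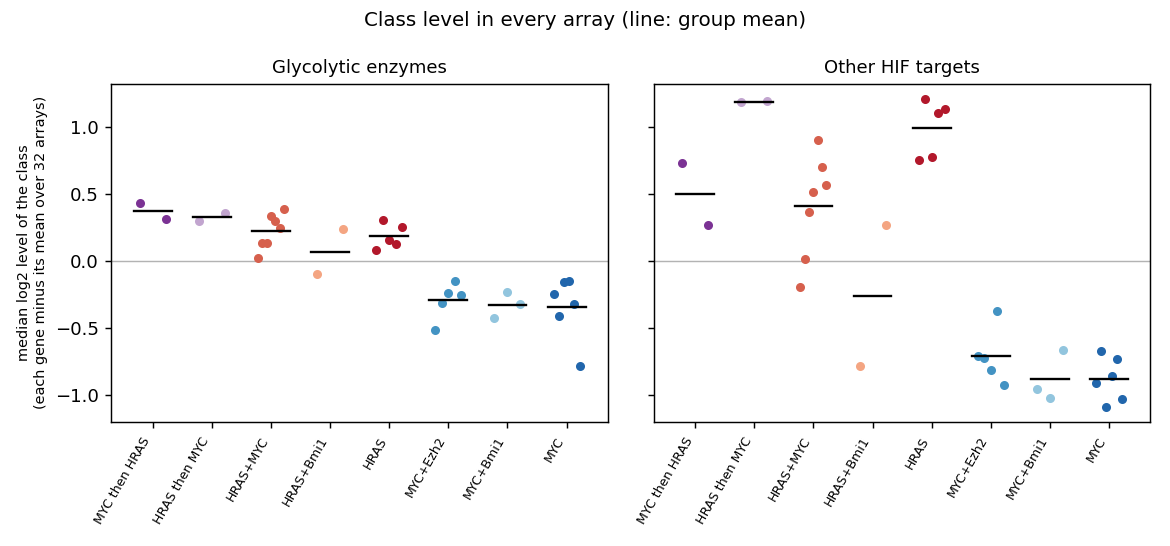
Median gene-centred log2 level of the 13 enzymes (left) and of the 15 other HIF targets (right) in each array (points), with the group mean (line). The enzymes of the HRAS+MYC arrays span 0.02 to 0.39, whereas their HIF targets span −0.20 to 0.90.

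Ezh2 and Bmi1, subunits of the Polycomb repressive complexes, gave no change that passed in these genes in MYC cells, where few of all genes passed. With MYC+Ezh2 against MYC no member passed, where 0.246% of all genes passed (0.130% higher and 0.115% lower), and 1 member (Slc16a3, 1.29, adjusted p = 0.428) had an unadjusted p under 0.05 by limma. With MYC+Bmi1 against MYC no member passed, where 0.150% passed (0.100% higher and 0.0502% lower), and 2 members had an unadjusted p under 0.05, Hif1a (−0.66, adjusted p = 0.181) and Higd1a (0.61, adjusted p = 0.404). From the dim set on its own chromosome Higd1a differed by −0.30 ± 0.18 (adjusted p = 0.546). Slc16a3 varied within both groups. It measured 6.82, 8.21, 10.41, 9.84 and 9.70 in MYC+Ezh2 cells, 8.10, 8.12 and 10.36 in MYC+Bmi1 cells, and 6.96 to 10.55 in MYC cells.

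Added to HRAS, Bmi1 went with lower levels of several HIF targets, though no call held without 1 of its 2 arrays. With HRAS+Bmi1 against HRAS 2 members rose and 7 fell, where 5.91% of all genes passed (2.87% higher and 3.04% lower). Slc16a3 measured 6.84 and 8.22 in HRAS+Bmi1 cells, against 9.89, 10.64, 11.19, 10.78 and 10.62 in HRAS cells, and was lower by −3.09 ± 0.80 (adjusted p = 0.0190). Ero1a measured 9.65 and 11.26 in HRAS+Bmi1 cells, against 11.92, 12.47, 12.12, 12.28 and 12.44 in HRAS cells. Both HRAS+Bmi1 arrays were below all HRAS arrays for these genes, and Ero1a was lower by −1.79 ± 0.43 (adjusted p = 0.0103). Bnip3 measured 7.94 and 10.22 in HRAS+Bmi1 cells, against 10.03, 11.08, 10.64, 11.12 and 10.88 in HRAS cells, and was lower by −1.67 ± 0.49 with overlap (adjusted p = 0.0423). Pfkfb3 measured 9.14 and 9.68 in HRAS+Bmi1 cells, against 7.88, 8.28, 8.52, 6.28 and 8.08 in HRAS cells, and rose by 1.60 ± 0.43 (adjusted p = 0.0249).

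Slc2a1 (−1.55), P4ha1 (−1.46), Pdk1 (−1.27) and Bnip3l (−1.21) also fell, and Epas1 rose (1.56). In HRAS+Bmi1 replicate 1 these 4 falling genes were at 9.65, 9.19, 7.39 and 10.12, and in replicate 2 at 11.13, 10.20, 8.92 and 10.65. Without replicate 1 the differences kept their direction, at −2.41 for Slc16a3, −0.99 for Ero1a, −0.53 for Bnip3 and 1.87 for Pfkfb3. Without replicate 2 they were −3.78 for Slc16a3 and 1.33 for Pfkfb3. With all arrays in the fit no enzyme passed, and 4 of the 13 had an unadjusted p under 0.05. Adm stayed high, at 9.35 and 10.48 in HRAS+Bmi1 cells. The change with Bmi1 in HRAS cells was more negative than that in MYC cells for Slc16a3 (−4.25 ± 1.05, adjusted p = 0.0289), Bnip3l (−1.40 ± 0.36, adjusted p = 0.0327) and P4ha1 (−1.37 ± 0.37, adjusted p = 0.0472), where 2.43% of all genes passed (1.33% positive and 1.10% negative). None of the 3 passed in a fit of the 4 groups alone, without HRAS+Bmi1 replicate 1 or without MYC+Bmi1 replicate 3.

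Adding HRAS to PNET cells went with higher levels of transporters, enzymes and HIF targets than in MYC cells. MYC then HRAS cells come from secondary tumours, so the added HRAS cannot be told apart from a further round of tumour growth and culture. With MYC then HRAS against MYC 21 members rose and 3 fell, where 20.4% of all genes passed (9.83% higher and 10.6% lower). The enzymes had 8 that rose and 2 that fell (median 0.76) and the other HIF targets 8 that rose (median 0.96), beside 0.03 over all genes. Ndrg1 measured 11.17 and 11.25 in MYC then HRAS cells, against 6.44, 6.75 and 9.74 (lowest, median and highest) in MYC cells. It rose by 3.63 ± 0.62 without overlap (adjusted p = 8.03e-05). Car9 measured 9.05 and 6.68 in MYC then HRAS cells, against 4.27, 4.38 and 4.49 in MYC cells, and rose by 3.49 ± 0.99 (adjusted p = 0.0123), but only with replicate 1 in the fit (2.31 and adjusted p = 0.289 without it).

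Slc2a1 measured 11.78 and 11.70 in MYC then HRAS cells, against 7.60, 8.45 and 9.33 (lowest, median and highest) in MYC cells, and rose by 3.25 ± 0.36 (adjusted p = 1.97e-07). Egln3 measured 10.20 and 8.48 in MYC then HRAS cells, against 5.99, 6.41 and 6.92 in MYC cells, and rose by 2.93 ± 0.43 (adjusted p = 1.04e-05). Neither gene overlapped. Pfkp rose by 1.77 ± 0.37 and Ldha by 0.74 ± 0.17. Hk1 was higher by 1.13 ± 0.21 from the set among chromosome 10 neighbours (adjusted p = 0.000231) and differed by −0.11 ± 0.13 from the brightest set (adjusted p = 0.627). Ldhb measured 7.47 and 5.20 in MYC then HRAS cells and fell by 1.98 (SE 0.51, adjusted p = 0.00582), a call that ended without replicate 2 (−0.85, adjusted p = 0.463). The count of passing members was 15 when only these arrays were fitted. In that fit 1230 of all genes were higher and 1137 lower, in place of 1959 and 2115. Against HRAS+MYC cells no member passed, where 0.110% of all genes passed (0.0702% higher and 0.0401% lower) and no member had an unadjusted p under 0.05.

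Adding MYC to glioma cells went with a change that passed in 3 members, a count near the share of all genes. HRAS then MYC cells come from secondary tumours, so the added MYC cannot be told apart from a further round of tumour growth and culture. With HRAS then MYC against HRAS 3 members rose and none fell, where 12.5% of all genes passed (6.30% higher and 6.21% lower). Of the 37 members 10 had an unadjusted p under 0.05 by limma. Ddit4 measured 10.99 and 11.13 in HRAS then MYC cells, against 8.99, 9.38, 8.77, 8.45 and 8.98 in HRAS cells, and rose by 2.15 ± 0.47 without overlap (adjusted p = 0.00263). Car12 measured 9.06 and 7.95 in HRAS then MYC cells, against 6.81, 8.03, 6.48, 5.50 and 5.19 in HRAS cells. The groups overlapped at 1 array each, and the rise was 2.10 ± 0.68 (adjusted p = 0.0416). Pdk1 measured 10.28 and 11.02 in HRAS then MYC cells, against 9.27, 10.04, 9.18, 8.98 and 9.66 in HRAS cells, a rise of 1.22 ± 0.37 without overlap (adjusted p = 0.0276). No member passed without HRAS then MYC replicate 2. No enzyme passed, with 3 of 13 at an unadjusted p under 0.05, and Pfkp was at 10.38 and 10.49 in HRAS then MYC cells (0.91 above HRAS, adjusted p = 0.131).

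HRAS then MYC cells also differed from HRAS+MYC cells, which carry the same oncogenes introduced together. HRAS then MYC cells come from secondary tumours. The order of the oncogenes therefore cannot be told apart from a further round of tumour growth and culture, or from the parent tumour. Here 8 members were higher and 1 lower, where 12.1% of all genes passed (6.89% higher and 5.17% lower). Adm measured 9.33 and 10.07 in HRAS then MYC cells, against 5.96, 6.53 and 7.56 (lowest, median and highest) in HRAS+MYC cells, and Ddit4 measured 10.99 and 11.13, against 7.89, 8.61 and 9.54. Neither overlapped, with rises of 3.05 ± 0.58 (adjusted p = 0.000603) and 2.32 ± 0.45 (adjusted p = 0.000704). Egln3 measured 10.42 and 10.81 in HRAS then MYC cells, against 7.97, 8.69 and 9.80 in HRAS+MYC cells, and rose by 1.89 ± 0.42 (adjusted p = 0.00267). Bnip3 measured 10.76 and 10.86 in HRAS then MYC cells, against 7.82, 9.64 and 10.15 in HRAS+MYC cells, and rose by 1.48 ± 0.47 (adjusted p = 0.0386). Pdk1 (1.10), P4ha1 (1.00), Pfkl (0.92) and Egln1 (0.71) rose and Epas1 was lower (−1.13), at a dim mean of 5.53 in HRAS then MYC cells. Ddit4 was the 1 call that held whichever array was left out.

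Compared directly, the orders of HRAS and MYC differed in 1 member, a share near that of all genes. With MYC then HRAS against HRAS then MYC, Adm measured 8.03 and 6.08, against 9.33 and 10.07, and was lower by −2.64 ± 0.72 (adjusted p = 0.0367), where 3.28% of all genes passed (1.70% higher and 1.58% lower). The groups did not overlap, but the call ended when MYC then HRAS replicate 2 or either HRAS then MYC array was left out, and with only these 4 arrays 3 other members passed in place of Adm (P4ha1, Pfkfb3 and Slc2a3, all lower). With 2 arrays in each group the precision was limited, and 8 members had an unadjusted p under 0.05.

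**Figure D4:**
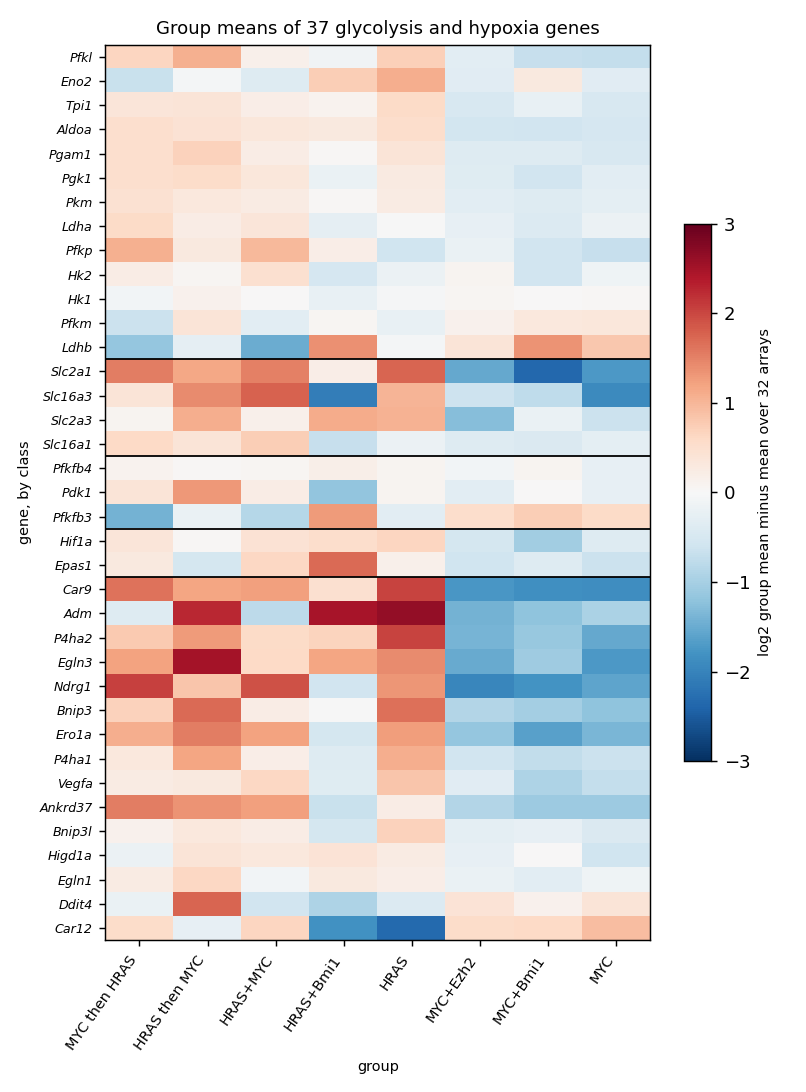
Group mean minus the mean over all 32 arrays (log2, colour) for the 37 members in rows, by class, and the 8 groups in columns. Rows of the other HIF targets are mostly red in the 4 groups with HRAS other than HRAS+Bmi1. They are mostly blue in the 3 groups with MYC and no HRAS. Car12 and Ddit4 depart from this, and so does Adm, at −0.789 in HRAS+MYC and −0.386 in MYC then HRAS. Smaller departures are Egln1 in HRAS+MYC (−0.090) and Higd1a in MYC then HRAS (−0.176) and MYC+Bmi1 (0.020).

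Genes next to these pathways gave a mixed picture, to be read against the 33.4% (HRAS against MYC) and 34.2% (HRAS+MYC against MYC) of all genes that passed. Of 28 further HIF targets 12 rose and 2 fell in HRAS cells against MYC cells, led by Tgfb3 (2.72), Hmox1 (2.62) and Plod2 (2.48), and 8 rose and 2 fell in HRAS+MYC cells against MYC cells, led by Hmox1 (2.39). Of 24 genes of pyruvate entry and the TCA cycle, 1 rose and 12 fell with HRAS against MYC, among them the mitochondrial pyruvate carrier subunit Mpc1 (−1.58), while the phosphatase Pdp1, which reactivates pyruvate dehydrogenase, rose (1.21). In HRAS+MYC against MYC cells none of these 24 rose and 11 fell, led by Pdk2 (−1.99), which like Pdk1 inhibits pyruvate dehydrogenase. The list mixes enzymes with regulators of opposite action, so its counts give no direction for pyruvate entry. Of 15 other glycolysis genes 3 rose and 3 fell with HRAS, and 5 rose and 2 fell with HRAS+MYC, with the aldolase Aldoc lower in both (−1.48 and −1.87). The pentose phosphate list of 6 had 1 that fell with HRAS (Rpia, −1.14) and 2 that rose with HRAS+MYC (Pgd, 1.24, and Taldo1, 0.76). Of 10 genes of the HIF machinery, the stable partner Arnt rose with HRAS (0.70), and 3 fell with HRAS+MYC, led by Arnt2 (−1.67). With both directions counted, the pentose phosphate and HIF machinery lists were near or below those shares of all genes. So were the other glycolysis genes in HRAS cells and the further HIF targets in HRAS+MYC cells. By direction, 8 of these 28 HIF targets rose and 2 fell in HRAS+MYC cells, where 15.8% of all genes were higher and 18.4% lower. Their median was 0.28, beside 0.03 over all genes. Whether this lean to higher values exceeds that of all genes was not tested.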

How the data were processed

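Each of the 32 neurosphere cultures was hybridised to 1 Affymetrix Mouse Gene 1.0 ST array. The deposited values are log2 expression per probe set, for which the submitters' processing notes name RMA and Affymetrix Expression Console 1.0. RMA equalises the arrays' distributions, so an overall rise or fall of RNA would not be seen, and it draws dim probe sets towards a floor, which understates their changes. The values, between 1.44 and 14.5, show a log2 scale. No filter is named there, and the number of arrays limits the precision.

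Of 35557 probe sets, 21789 have 1 gene symbol in the platform annotation, 1621 have several and 12147 are not listed there. The brightest set with 1 symbol stands for a gene. An alternative took the set whose neighbours in number order lie on the gene's chromosome, and it was added after seeing the data. Promoters are RefSeq's (GRCm38.p6).

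Groups came from the labels. All p-values of genes are from a 2-sided test in limma 3.58.1 (R 4.3.3), fitted once over all arrays with 8 group means, eBayes, and Benjamini-Hochberg adjustment over the 19938 genes of a comparison; a gene passed at an adjusted p under 0.05. The fit was tested on simulated data. The members, lists and alternatives were chosen with earlier results of these data known, so no list is independent evidence. Each array's value, or the lowest, median and highest in groups of over 5 arrays, is given, in the first 3 comparisons, for the 4 enzymes, transporters or regulators and the 4 other members with the largest differences among those that passed, in the other comparisons for up to 4, and isozymes are described whatever their values. Alternatives were the arrays of the compared groups alone, the mean of a gene's sets, a filter on means under 6, quantile normalization of genes, a variance trend, the replicate number as a block, and leaving out arrays.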

Additional observations from a re-analysis of the deposited data

Results flagged for a closer look

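In groups of 4 to 10 arrays, 10 of 148 combinations of a member and a group had 1 array far from the rest of its group by Dixon's criterion, which chance gives in about 1 of 20. In HRAS cells these were Eno2 at 9.12 in replicate 5, Ldha at 13.11 and P4ha2 at 10.24 in replicate 2, Pfkfb3 at 6.28 in replicate 4, Pfkfb4 at 6.27 in replicate 1 and Egln1 at 9.57 in replicate 3. In HRAS+MYC cells Ero1a was low at 11.07 in replicate 1. In MYC cells Slc16a3 was high at 10.55 in replicate 5, and Slc16a1 at 10.03 and Higd1a at 5.33 were low in replicate 6.

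The change with Bmi1 differed between HRAS and MYC cells by the test of the difference itself for 3 members. The change in HRAS cells minus that in MYC cells was −4.25 for Slc16a3, −1.40 for Bnip3l and −1.37 for P4ha1, where 2.43% of all genes passed. In a fit of the 4 groups alone none of the 3 passed (adjusted p = 0.127, 0.167 and 0.138 by limma), and none passed without HRAS+Bmi1 replicate 1 or without MYC+Bmi1 replicate 3.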

How the results depend on the processing

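Over the 11 comparisons 116 member calls passed, and 40 of them were lost when some array was left out. All 9 of HRAS+Bmi1 against HRAS, the 3 of HRAS then MYC against HRAS and the 1 between the orders were among these, comparisons with 2 arrays in a group; in fits that left 1 array in a group, that array was taken to vary like the other groups. Leaving out 1 array gave 23 to 24 higher and 1 to 4 lower members for HRAS against MYC (1 without HRAS replicate 4), 25 to 26 and 4 for HRAS+MYC against MYC, and 5 to 7 and 6 to 9 for HRAS+MYC against HRAS. It gave 0 for MYC+Ezh2 and 0 to 1 for MYC+Bmi1 against MYC (1 without MYC replicate 6), 0 to 9 for HRAS+Bmi1 against HRAS, 14 to 24 for MYC then HRAS against MYC, and 0 to 5 for HRAS then MYC against HRAS (5 without HRAS replicate 2, 1 without HRAS replicate 4). Against HRAS+MYC it gave 0 for MYC then HRAS and 1 to 9 for HRAS then MYC (3 and 1 without its replicate 1 or 2). Between the orders it gave 0 to 3, and for the difference of the Bmi1 changes 0 to 4 (0 without MYC+Bmi1 replicate 3 or HRAS+Bmi1 replicate 1, 1 without HRAS replicate 2, 4 or 5). The number of all genes that passed also changed between these fits, so these ranges of counts have no background to be read against. The medians of the HIF targets minus those of the enzymes ran over 1.10 to 1.26 for HRAS against MYC, 0.58 to 0.93 for HRAS+MYC against MYC and −0.29 to −0.15 for HRAS+MYC against HRAS.

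With the arrays of the compared groups alone, MYC then HRAS against MYC gave 15 members in place of 24, the orders 3 in place of 1, and the difference of the Bmi1 changes 0 in place of 3, with fewer arrays to estimate the spread. Calls over all genes changed too. For MYC then HRAS against MYC they were 1230 higher and 1137 lower in place of 1959 and 2115. For the orders they were 365 and 280 in place of 338 and 315. For the difference of the Bmi1 changes they were 68 and 67 in place of 266 and 219. Between the orders 2 members passed with dim genes left out and 0 after quantile normalization; the cause was not tested. With the probe sets on the genes' own chromosomes the gap of the class medians in HRAS+MYC against MYC was 0.416 in place of 0.718. Higd1a, whose set there is dim, turned to −0.015 in HRAS and −0.0069 in HRAS+MYC against MYC. Hk1, which did not pass, turned to 1.12 in HRAS, 0.99 in HRAS+MYC and 1.13 in MYC then HRAS against MYC with these sets, and to 0.53, 0.48 and 0.51 with the mean of its sets, all of which passed. Of the members' values under settings other than leaving out 1 array, 3208 stayed on their side of the threshold (69 of them with another sign, passing in neither fit), 49 lost and 28 gained a pass, and these 8 turned. The replicate number as a block gave 1 member in place of 3 for HRAS then MYC against HRAS. Same-numbered arrays correlated between −0.301 and 0.343, and in no comparison were all pairs above 0.1. That gave no sign that the numbers pair the arrays. With 2 to 6 pairs in a comparison, the check cannot exclude that some arrays share an origin.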

Other observations

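With HRAS then MYC against HRAS, 11 of the 24 genes of pyruvate entry and the TCA cycle rose and 1 fell, where 12.5% of all genes passed, with a median of 0.46 over the list beside 0.04 over all genes. These counts rest on the 2 HRAS then MYC arrays. Without replicate 1 of that group 6 of the list rose and 1 fell, beside 527 higher and 583 lower of all genes, and without replicate 2 none of the list passed by limma (14 had an unadjusted p under 0.05), beside 228 higher and 316 lower of all genes. The mitochondrial pyruvate carrier subunit Mpc1 rose by 0.97 ± 0.26 (SE, adjusted p = 0.0143 by limma) with all arrays in the fit, with means of 7.94 in HRAS then MYC cells and 6.97 in HRAS cells. Pdp1, the phosphatase that reactivates pyruvate dehydrogenase, was the gene that fell (−1.40 ± 0.35), with means of 8.61 in HRAS then MYC cells and 10.01 in HRAS cells.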
